A study of Mus musculus with 3 samples.

Results

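The genes described here are the mouse replication-type histone genes, taken as every gene in the deposited matrices whose symbol starts with Hist1h, Hist2h, Hist3h or Hist4h. The symbols gave 67 of the 32285 genes: 6 of linker histone H1, 18 of H2A, 18 of H2B, 12 of H3 and 13 of H4. The members were chosen by symbol, and the set itself was selected on its summed UMIs by cell class in these same libraries, so those sums are given as a description. By position, 54 members lie on chromosome 13, 10 on chromosome 3, 2 on chromosome 11 and 1 on chromosome 6 (GRCm38).

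Histones H2A, H2B, H3 and H4 form the nucleosome core around which DNA is wrapped, and H1 binds the linker DNA between nucleosomes. Most messages of replication-type histone genes are made in S phase and end in a conserved stem-loop that the stem-loop binding protein SLBP recognises, in place of a poly(A) tail. Some of these genes also give polyadenylated messages, in cells that have left the cell cycle among others, and replacement histones such as H3.3 come from separate genes with ordinary poly(A) tails. A library primed on poly(A), as here, therefore reads these genes through whichever of their messages carry or offer a run of A.

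Single islet cells from mice 9 months old were sequenced in 3 libraries, 1 for each genotype label: ASF-KO, SC35-KO and WT (wild type). ASF and SC35 are older names of the splicing factors SRSF1 and SRSF2. Which part of either gene was removed, in which cells and by which driver is not in the labels, nor is the number of mice behind a library. Nothing is replicated, so no test, standard error or p-value is given, and every interval is a 95% interval for counting error that says nothing of the spread between mice. Intervals of levels and ratios are on pooled UMIs and also leave out the spread between cells. Both KO libraries are set against the 1 WT library, so the comparisons share it.

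After filtering, 7082 cells labelled ASF-KO, 10799 labelled SC35-KO and 8997 WT cells were kept, with 134720138, 133045376 and 146084747 UMIs (unique molecular identifiers, each standing for a captured RNA molecule). The filter took out 40.8% of ASF-KO barcodes, 16.1% of SC35-KO barcodes and 9.53% of WT barcodes. Kept cells of a pair of libraries shared 11 to 28 barcodes, and no barcode was in all 3. Levels are given as CPM, the UMIs of a gene scaled to a total of 1000000 UMIs in the cells summed. In CPM of beta-gated cells, which make most of the UMIs, neither targeted gene differed from WT by more than counting error in the library that bears its name. Srsf1 had 37.1 CPM in ASF-KO beta-gated cells, 40.3 in SC35-KO and 38.4 in WT, and the ASF-KO to WT ratio was 0.966 (0.925 to 1.009). Srsf2 had 54.3 CPM in ASF-KO, 26.6 in SC35-KO and 27.5 in WT, which made it 1.97 times the WT level (1.89 to 2.06) in ASF-KO and 0.966 times (0.915 to 1.02) in SC35-KO. The median gene of these beta-gated comparisons had ratios of 0.714 in ASF-KO and 0.756 in SC35-KO, below those of the targeted genes. Outside beta-gated cells, the ASF-KO ratio of Srsf1 ran from 1.11 in endothelial-gated (0.853 to 1.43) to 1.56 in alpha-gated cells (1.43 to 1.70). The SC35-KO ratio of Srsf2 ran from 1.06 in alpha-gated (0.956 to 1.17) to 1.65 in endothelial-gated cells (1.31 to 2.08). A 3' tag outside a deleted exon would not show a deletion, so the genotypes are used below as labels of the libraries.

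The stem-loop was looked for in the annotated transcripts, since it marks where the replication-type message is known to end. The histone stem-loop motif, a short stem closed by a loop of mostly T, was searched by script on the transcript strand within 150 bases after the stop codon. It was found in 46 of 67 members (68.7%) and in 0.296% of the 21632 other protein-coding genes. It began 21 to 58 bases after the stop codon, with a median of 31. In 15 of the 21 members without it the annotated untranslated region is too short to hold it. The sites of 8 abundant members are shown, with the 16 bases of the stem-loop in capitals and 5 transcript bases on each side (3 on the right for Hist1h2ap, whose annotated transcript ends there).
Hist1h1c: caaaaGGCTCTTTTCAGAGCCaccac
Hist1h1e: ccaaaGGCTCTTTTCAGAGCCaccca
Hist1h2ap: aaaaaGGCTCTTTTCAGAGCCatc
Hist2h2aa1: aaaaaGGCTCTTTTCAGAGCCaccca
Hist3h2ba: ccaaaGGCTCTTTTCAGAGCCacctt
Hist1h3e: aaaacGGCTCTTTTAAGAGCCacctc
Hist1h4d: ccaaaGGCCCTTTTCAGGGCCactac
Hist1h4i: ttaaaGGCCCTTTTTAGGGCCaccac
These sites lie at chr13:23739507-23739532, chr13:23621777-23621802, chr13:21833026-21833049, chr3:96246027-96246052, chr11:58949344-58949369, chr13:23561898-23561923, chr13:23581945-23581970 and chr13:22040961-22040986 of GRCm38, in the order shown. Hist1h1e, Hist1h2ap, Hist1h3e and Hist1h4i are on the minus strand, and the remaining sites on the plus strand. The stem-loop of Hist1h1c, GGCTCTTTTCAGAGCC, is shared by 26 members of H1, H2A, H2B and H3. The form of Hist1h4d, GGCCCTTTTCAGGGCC, was found in 7 members, all of them H4 genes, and that of Hist1h3e in 6.

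Members with the motif differed in how far their annotated transcript runs past it. In 23 members it runs 100 bases or more past the loop, and in 23 it ends sooner. Members with the long end had a median of 4.01 CPM (range 0.0188 to 75.3), averaged over the 3 libraries, against 0.234 (0.00954 to 24.1) for those with the short end. A poly(A) signal (AATAAA or ATTAAA) was in the last 60 bases of 12 of the 23 long ends and of 1 of the 23 short ends. Hist1h4h, Hist1h2ap and Hist2h2aa1 stand out among the short ends, at 24.1, 15.6 and 10.9 CPM. Transcript ends are those of GENCODE M21, and the release behind the deposited counts is not given in the sources used here. Counts of 3' tags are not scaled by gene length, and a message without a poly(A) tail is largely missed, so a low count is no measure of the whole message.

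**Figure D1:**
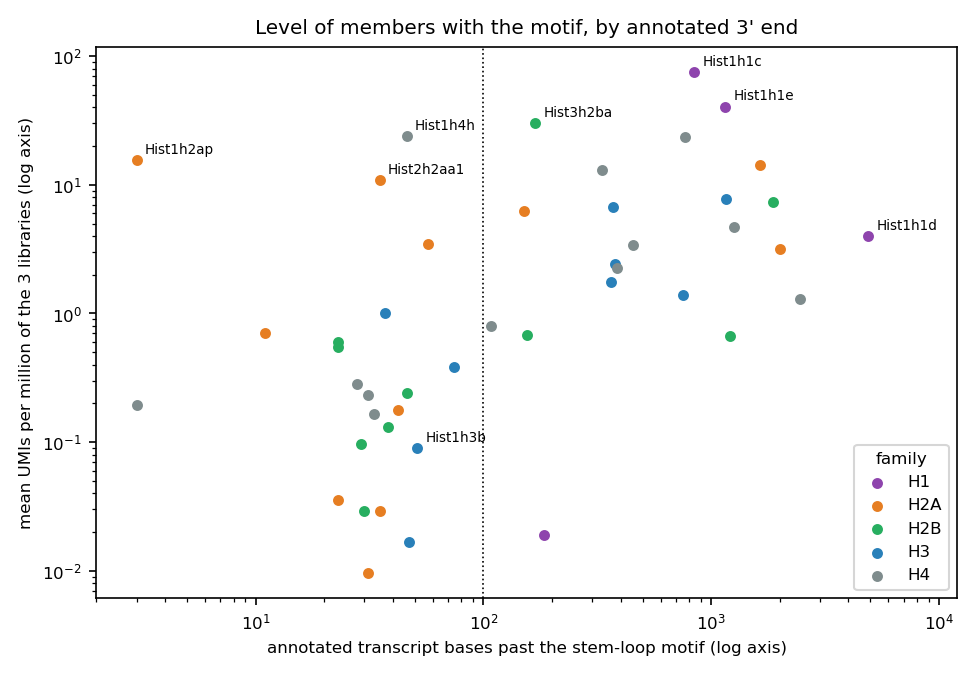
Mean CPM of the 3 libraries (vertical, log axis) against annotated transcript bases past the stem-loop (horizontal, log axis) for members with the motif, 1 point a gene, coloured by family. Points right of the dotted line at 100 bases have a median of 4.01 and those left of it 0.234, while Hist1h4h, Hist1h2ap and Hist2h2aa1 are high with ends of 46, 3 and 35 bases.

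Histone UMIs were a small and unevenly divided part of each library. Members summed to 408 CPM in ASF-KO (404.9 to 412), 408 in SC35-KO (404.1 to 411) and 509 in WT (506 to 513). They were detected in 95.0% of ASF-KO cells, 93.0% of SC35-KO cells and 93.3% of WT cells. The 3 highest members of each library made 63.0% of its histone UMIs in ASF-KO, 60.8% in SC35-KO and 46.6% in WT. Over the libraries, 21 members had at least 1000 UMIs, 8 had 1 to 19, and Hist1h2aa, Hist1h2ah, Hist1h2ba and Hist1h2bq had 0.

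The most abundant member was Hist1h2bc, an H2B gene for which the motif was not found, at 121.6 CPM in ASF-KO, 127 in SC35-KO and 115 in WT. The linker histone genes Hist1h1c (62.3 in ASF-KO, 77.0 in SC35-KO and 86.6 in WT) and Hist1h1e (73.5 in ASF-KO, 17.3 in SC35-KO and 30.8 in WT) came next by the mean of the libraries, then Hist3h2ba, an H2B gene. The highest members of the other families were Hist1h2ap for H2A, Hist2h3c1 for H3 and Hist1h4h for H4. Hist1h2bc differed little between libraries, whereas Hist1h1e was highest in ASF-KO and lowest in SC35-KO.

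Cells were sorted into classes by hormone share or by marker genes, and 5 classes had over 100 cells in each library: beta-gated (3924 ASF-KO, 5094 SC35-KO and 4781 WT cells), alpha-gated (1453, 2666 and 1298), delta-gated (618, 1430 and 680), gamma-gated (113, 301 and 273) and endothelial-gated (421, 384 and 645). Of these 5 classes, delta-gated cells had the highest histone sum in each library, at 822 CPM in ASF-KO, 776 in SC35-KO and 878 in WT. Beta-gated cells had the lowest of the 5, at 339.8 in ASF-KO, 357 in SC35-KO and 449.9 in WT. Some classes with fewer cells lay outside these values, such as WT B or plasma cells at 3215 CPM and WT acinar cells at 169. The hormone genes took 68.1% of beta-gated UMIs in ASF-KO, 68.9% in SC35-KO and 58.4% in WT, against 30.2%, 28.8% and 25.5% of delta-gated UMIs, and every CPM falls as that share grows.

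**Figure D2:**
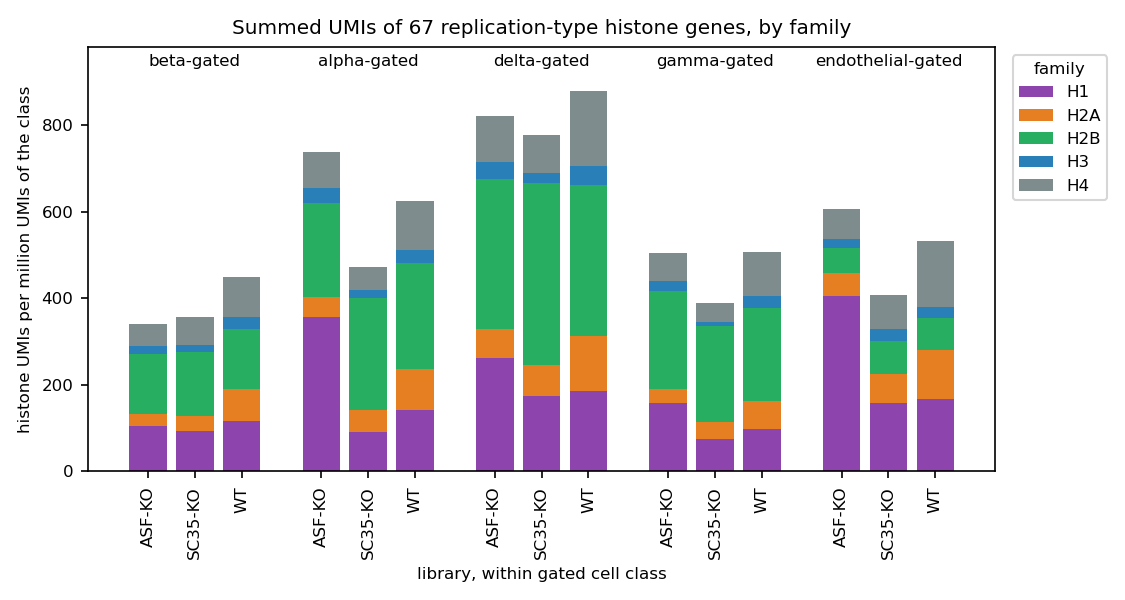
Summed CPM of the 67 members (vertical), stacked by family, for each library within each gated class (horizontal: ASF-KO, SC35-KO, WT). Outside beta-gated cells the H1 block is tallest in ASF-KO, the H2A and H4 blocks are tallest in WT in each class, and the H2B block is shorter in endothelial-gated cells than in the 4 hormone classes.

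In beta-gated cells the histone sum was 0.755 times WT in ASF-KO (0.745 to 0.766) and 0.793 times WT in SC35-KO (0.782 to 0.804). These ratios follow the scale: the median gene stood at 0.714 and 0.756 of WT in the same comparisons, and with hormone and mitochondrially encoded genes taken out of the total the ratios became 1.0 and 1.07. The members as a sum therefore lay 0.08 in ASF-KO and 0.07 in SC35-KO above the median gene on the log2 scale. In alpha-gated cells, where the median gene was at 1.02 in ASF-KO and 0.881 in SC35-KO, the sum was 737 CPM in ASF-KO, 473 in SC35-KO and 625 in WT, or 1.18 (1.14 to 1.21) and 0.756 (0.734 to 0.778) times WT. Changes of single members are given below relative to the median gene of the same comparison, and a member is counted as higher or lower from 1.5-fold.

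Single members differed from the median gene in both directions. In beta-gated cells, 47 members had at least 20 UMIs in ASF-KO or WT, and 8 of them were higher and 9 lower in ASF-KO, where 11.4% of all genes so measured were higher and 14.7% lower. In SC35-KO against WT, 5 of 47 were higher and 9 lower, where 8.31% of all genes were higher and 6.6% lower. In alpha-gated cells the ASF-KO comparison had 7 members higher and 11 lower of 28, where 6.79% of all genes were higher and 9.51% lower, and the SC35-KO comparison had 1 higher and 14 lower of 28, where 5.67% were higher and 4.47% lower. The median member lay at -0.43 in ASF-KO and -0.53 in SC35-KO in alpha-gated cells, and at -0.09 and -0.07 in beta-gated cells (log2, relative to the median gene).

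The smaller classes gave fewer members to count. Of 20 measured members in delta-gated cells, ASF-KO had 2 higher (background 7.2%) and 6 lower (9.3%), and of 23 in SC35-KO 1 was higher (6.42%) and 11 lower (5.03%). Of 14 in gamma-gated cells, ASF-KO had 1 higher (8.9%) and 8 lower (14%), and of 15 in SC35-KO 0 were higher (7.3%) and 7 lower (9.53%). Of 11 in endothelial-gated cells, ASF-KO had 4 higher (9.43%) and 6 lower (12.8%), and of 10 in SC35-KO 1 was higher (7.31%) and 4 lower (10.8%). In each of the 10 comparisons, 1 to 7 of the measured members reached 20 UMIs in WT alone, which favours a lower call, and 0 to 3 in the knockout library alone, which favours a higher one, so the counts do not speak for members that were not measured.

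**Figure D3:**
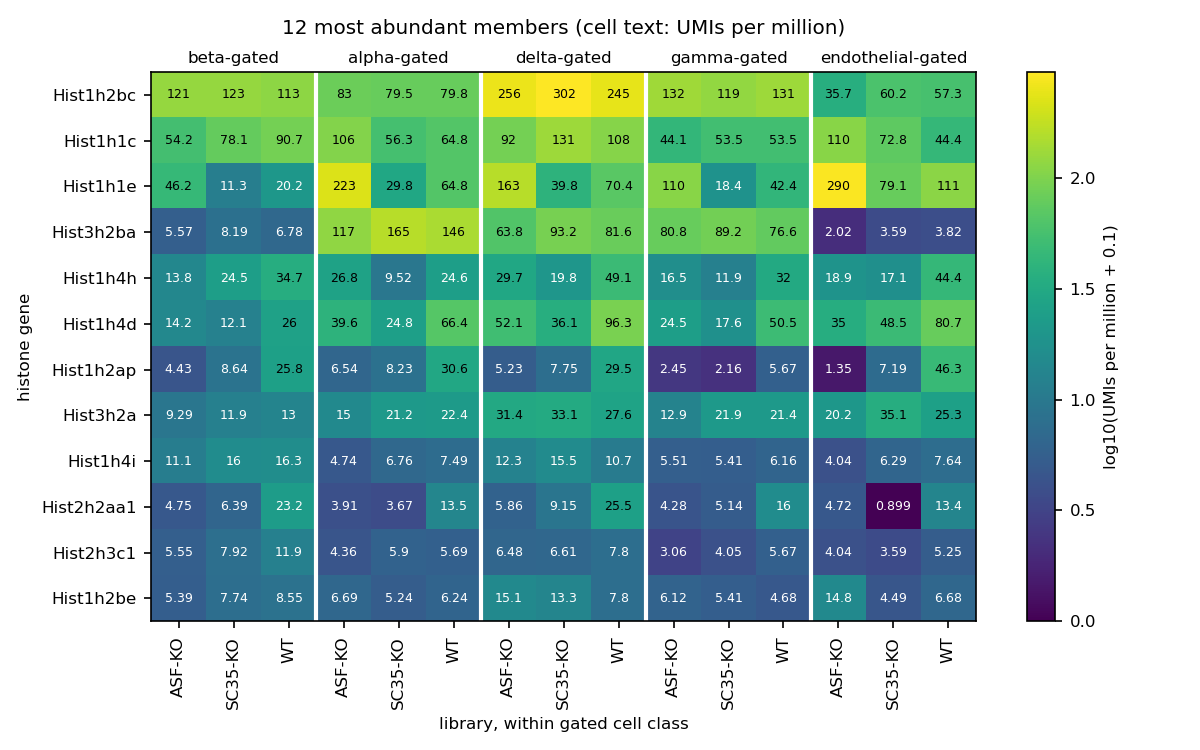
CPM of the 12 most abundant members (rows) in each library within each gated class (columns: ASF-KO, SC35-KO, WT), coloured on a log10 scale and printed in each cell. Hist1h1e is brightest in the ASF-KO column of each class, Hist3h2ba is high in alpha-gated, delta-gated and gamma-gated cells, and Hist1h2ap and Hist2h2aa1 are brightest in WT.

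Summed linker histone H1 stood above the median gene in ASF-KO in all 5 classes, by 0.34 to 1.31 on the log2 scale, but in 3 of them this rested on Hist1h1e. Without Hist1h1e, an alternative chosen after seeing the data, the other 5 H1 genes stood 0.23 below the median gene in beta-gated cells (58.0 CPM in ASF-KO and 95.3 in WT), 0.21 below it in delta-gated and 0.54 below it in gamma-gated cells. They stood 0.78 above it in alpha-gated cells (133 CPM in ASF-KO and 76.1 in WT) and 0.99 above it in endothelial-gated cells (114.5 in ASF-KO and 56.3 in WT). Summed H1 genes of alpha-gated cells had 356 CPM in ASF-KO, 91.3 in SC35-KO and 141 in WT, which is 2.53 (2.4 to 2.67) and 0.648 (0.607 to 0.691) times WT. Endothelial-gated cells had 404.3 in ASF-KO, 157 in SC35-KO and 168 in WT, with ratios of 2.41 (2.11 to 2.76) and 0.939 (0.778 to 1.13). In beta-gated cells H1 was 0.902 times WT in ASF-KO (0.880 to 0.925), which is 0.34 above the median gene on the log2 scale, and 0.798 times in SC35-KO (0.776 to 0.820), which is 0.08 above it.

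Hist1h1e, a linker histone gene expressed in many dividing and resting cell types, was the H1 member with the most ASF-KO UMIs in alpha-gated cells. Its level in alpha-gated cells was 223 CPM in ASF-KO (215 to 232), 29.8 in SC35-KO (27.6 to 32.3) and 64.8 in WT (60.5 to 69.4), so that the 3 intervals lay apart. The ratio to WT was 3.45 in ASF-KO (3.19 to 3.73) and 0.460 in SC35-KO (0.414 to 0.511), or 1.76 above and 0.94 below the median gene on the log2 scale. Beta-gated cells had 46.2 CPM in ASF-KO, 11.3 in SC35-KO and 20.2 in WT, with ratios of 2.28 (2.17 to 2.4) and 0.560 (0.520 to 0.603).

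The order of the 3 libraries for Hist1h1e was the same in the remaining classes. Delta-gated cells had 163 CPM in ASF-KO, 39.8 in SC35-KO and 70.4 in WT, and gamma-gated cells had 110.2, 18.4 and 42.4. Endothelial-gated cells had 289.7 in ASF-KO, 79.1 in SC35-KO and 111 in WT. Macrophage-gated cells, with 30, 86 and 131 cells, had 303.6 in ASF-KO, 31.3 in SC35-KO and 55.1 in WT from 34, 9 and 35 UMIs. With each cell thinned to 2000 UMIs, a Hist1h1e UMI was found in 33.0% of ASF-KO alpha-gated cells (30.6 to 35.5), 5.46% of SC35-KO (4.62 to 6.40) and 10.4% of WT (8.81 to 12.2). The unthinned shares were 70.1% in ASF-KO, 19.8% in SC35-KO and 41.4% in WT.

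The Hist1h1e gene lies at chr13:23620629-23622558 on the minus strand, and 496 of its 1930 exonic bases, the last 100 among them, are also exonic in Hist1h2be or Gm11398 on the same strand. Hist1h2be, an H2B gene, had 5.39 CPM in ASF-KO beta-gated cells, 7.74 in SC35-KO and 8.55 in WT. Its ASF-KO ratio was 0.630 (0.568 to 0.700) where the median gene stood at 0.714, whereas Hist1h1e was above WT there. In endothelial-gated cells the libraries stood in the order seen for Hist1h1e, with 14.8 CPM of Hist1h2be in ASF-KO, 4.49 in SC35-KO and 6.68 in WT from 22, 5 and 14 UMIs, and an ASF-KO ratio of 2.22 (1.08 to 4.69). Alpha-gated cells had that order too, with 6.69 in ASF-KO, 5.24 in SC35-KO and 6.24 in WT, but the ASF-KO interval (0.784 to 1.47) included 1. Delta-gated cells had 15.1 in ASF-KO, 13.3 in SC35-KO and 7.80 in WT, with ratios of 1.93 (1.30 to 2.91) and 1.71 (1.18 to 2.52), and gamma-gated cells 6.12, 5.41 and 4.68 from 10, 20 and 19 UMIs. Reads within the shared bases cannot be given to one gene, so the level of Hist1h1e and its ratios are uncertain to that extent, and the part of the shared bases in them was not tested.

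The other H1 genes are given by class, and no difference between classes was tested. Hist1h1c had 106 CPM in ASF-KO alpha-gated cells, 56.3 in SC35-KO and 64.8 in WT, and was 1.63 times WT in ASF-KO (1.49 to 1.78) and 0.869 times in SC35-KO (0.794 to 0.95). In beta-gated cells Hist1h1c had 54.2 in ASF-KO, 78.1 in SC35-KO and 90.7 in WT, a ratio of 0.598 (0.579 to 0.617) in ASF-KO, or 0.26 below the median gene on the log2 scale. Hist1h1d was 2.28 times WT in ASF-KO alpha-gated cells (1.76 to 2.97) and 0.517 times in SC35-KO (0.372 to 0.716), with 15.1 CPM in ASF-KO, 3.43 in SC35-KO and 6.63 in WT. Hist1h1b had 11 in ASF-KO alpha-gated cells, 1.43 in SC35-KO and 3.67 in WT, or 3.0 (2.14 to 4.25) and 0.390 (0.238 to 0.629) times WT. The top 1% of ASF-KO alpha-gated cells held 47.3% of the Hist1h1b UMIs. In beta-gated cells Hist1h1b had 64 UMIs in ASF-KO, 34 in SC35-KO and 41 in WT, an ASF-KO ratio of 1.55 (1.03 to 2.35). Hist1h1d had 3.01 CPM in ASF-KO beta-gated cells, 2.35 in SC35-KO and 4.04 in WT. Its ASF-KO ratio was 0.745 (0.644 to 0.861), near the 0.714 of the median gene. Hist1h1a had 20 UMIs in ASF-KO beta-gated cells, 4 in SC35-KO and 17 in WT, and the testis gene Hist1h1t 8 UMIs in all.

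Other measures were also highest in ASF-KO. The median mitochondrial share of alpha-gated cells was 4.13% in ASF-KO, 2.65% in SC35-KO and 2.58% in WT, and insulin UMIs were 2.63%, 2.27% and 1.49% of their total. The part of these differences in the H1 values was not tested.

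The promoters of the 3 H1 genes that were over 2-fold higher in ASF-KO alpha-gated cells are shown because these genes were high together there. The windows run from 250 bases before to 50 bases after the RefSeq start (GRCm38.p6), with every match on either strand in capitals: TATAAA is the TATA box word, the word CCAAT is bound by NF-Y, and AAACACA is the word known as the H1 box.
Hist1h1e promoter: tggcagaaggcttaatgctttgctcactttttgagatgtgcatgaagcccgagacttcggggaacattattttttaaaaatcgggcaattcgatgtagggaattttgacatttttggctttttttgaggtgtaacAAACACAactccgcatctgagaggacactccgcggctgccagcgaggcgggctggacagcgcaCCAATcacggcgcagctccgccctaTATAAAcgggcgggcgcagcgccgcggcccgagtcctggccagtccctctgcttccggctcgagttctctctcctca
Hist1h1d promoter: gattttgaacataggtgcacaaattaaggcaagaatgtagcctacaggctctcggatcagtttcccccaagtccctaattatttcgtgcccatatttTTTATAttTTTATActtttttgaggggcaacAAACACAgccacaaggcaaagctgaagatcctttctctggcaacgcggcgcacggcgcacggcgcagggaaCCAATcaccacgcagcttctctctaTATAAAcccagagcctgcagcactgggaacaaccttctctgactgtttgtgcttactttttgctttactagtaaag
Hist1h1b promoter: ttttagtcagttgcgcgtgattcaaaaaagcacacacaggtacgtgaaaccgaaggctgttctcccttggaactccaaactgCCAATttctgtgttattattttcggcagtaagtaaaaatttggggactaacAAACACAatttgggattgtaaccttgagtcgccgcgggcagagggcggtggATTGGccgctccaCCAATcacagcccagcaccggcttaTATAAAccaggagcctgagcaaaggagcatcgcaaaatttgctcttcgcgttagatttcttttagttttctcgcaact
The windows lie at chr13:23622509-23622808 (minus strand), chr13:23554782-23555081 (plus strand) and chr13:21780576-21780875 (minus strand). Of 6 H1 promoters, 5 hold AAACACA, against 7.18% of all 32851 promoters of this length on either strand. It was in 2 of 18 H2A, 2 of 16 H2B, 0 of 10 H3 and 0 of 12 H4 promoters. CCAAT was in 53 of the 62 members with a promoter in the table and in 37.4% of all promoters, TATAAA in 35 and 13.6%, and ATTTGCAT, the octamer word, in 14 and 1.74%. All 14 octamer matches were in H2A or H2B promoters, 7 in each.

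H2A genes, whose product pairs with H2B in the nucleosome, had the lowest family ratios in beta-gated cells. Their sum in beta-gated cells was 28.8 CPM in ASF-KO, 36.3 in SC35-KO and 75.3 in WT, or 0.382 (0.367 to 0.398) and 0.482 (0.463 to 0.502) times WT. In alpha-gated cells it was 45.2 in ASF-KO, 50.1 in SC35-KO and 95.9 in WT, with ratios of 0.472 (0.427 to 0.520) and 0.522 (0.481 to 0.568). The other classes ran from 0.470 to 0.520 in ASF-KO and from 0.574 to 0.615 in SC35-KO. In endothelial-gated cells part of the WT level came from 3 cycling cells. Without cycling cells Hist1h2ap there fell from 46.3 to 18.8 CPM in WT, from 7.19 to 2.72 in SC35-KO and from 1.35 to 0.678 in ASF-KO. Hist1h2ae there fell from 10.0 to 3.38 in WT and from 8.99 to 4.53 in SC35-KO, and stood at 2.02 and 2.03 in ASF-KO.

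A pair of H2A genes accounted for much of the H2A difference. Hist1h2ap had 4.43 CPM in ASF-KO beta-gated cells (4.05 to 4.85), 8.64 in SC35-KO (8.05 to 9.26) and 25.8 in WT (24.9 to 26.8), a ratio of 0.172 (0.156 to 0.189) in ASF-KO and 0.335 (0.309 to 0.362) in SC35-KO. Without cycling cells its beta-gated level was 4.36 in ASF-KO, 7.29 in SC35-KO and 23.9 in WT, so most of it came from cells not called cycling. A single beta-gated cell held at most 4 Hist1h2ap UMIs in ASF-KO, 39 in SC35-KO and 102 in WT. Hist2h2aa1 had 4.75 in ASF-KO beta-gated cells, 6.39 in SC35-KO and 23.2 in WT, with ratios of 0.205 (0.186 to 0.225) and 0.276 (0.252 to 0.302). Each gene was higher in WT in all 5 classes, but in gamma-gated cells, with 4 Hist1h2ap UMIs in ASF-KO, 8 in SC35-KO and 23 in WT, the ASF-KO interval for Hist1h2ap (0.109 to 1.26) included 1.

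In alpha-gated cells Hist1h2ap had 6.54 CPM in ASF-KO, 8.23 in SC35-KO and 30.6 in WT, and Hist2h2aa1 had 3.91, 3.67 and 13.5. After thinning to 2000 UMIs, 0.873% of ASF-KO beta-gated cells, 1.66% of SC35-KO and 5.17% of WT had a Hist1h2ap UMI. The last 91 transcript bases of each gene also occur in the transcript of a copy, Hist1h2ao and Hist2h2aa2, at 4 and 12 UMIs over the 3 libraries. Gm20634 covers 529 of the 586 exonic bases of Hist2h2aa1. The counts of Hist1h2ap and Hist2h2aa1 are therefore uncertain in level, since reads that match copies equally may have been lost or given to one of them.

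Not all H2A genes followed. Hist2h2ac had 3.68 CPM in ASF-KO beta-gated cells, 1.76 in SC35-KO and 2.30 in WT, which was 1.60 (1.36 to 1.88) and 0.765 (0.624 to 0.936) times WT. The median gene there stood at 0.714 and 0.756 times WT, so the SC35-KO value of Hist2h2ac lay near it. Hist3h2a lay at the median gene in the ASF-KO beta-gated comparison, with 9.29 in ASF-KO, 11.9 in SC35-KO and 13.0 in WT. In the other ASF-KO comparisons Hist3h2a was lower in alpha-gated (-0.60) and gamma-gated cells (-1.06, log2 relative to the median gene). It stood at -0.36 in endothelial-gated and 0.19 in delta-gated cells. Hist1h2ae and Hist1h2ac were lower in ASF-KO alpha-gated cells, by 1.53 and 1.44 on the log2 scale relative to the median gene.

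In CPM, H2B lay nearest to WT of the 5 families in beta-gated cells. Its sum was 138.2 CPM in ASF-KO beta-gated cells, 146 in SC35-KO and 138.5 in WT, with ratios of 0.998 (0.976 to 1.02) and 1.06 (1.03 to 1.08), which is 0.48 above the median gene in each. Hist1h2bc was most of that sum. It had 83.0 CPM in ASF-KO alpha-gated cells, 79.5 in SC35-KO and 79.8 in WT, and 256 in ASF-KO delta-gated cells, 302 in SC35-KO and 245 in WT. Of the 5 classes, delta-gated cells had the highest level of Hist1h2bc in each library and endothelial-gated cells the lowest, with 35.7 in ASF-KO, 60.2 in SC35-KO and 57.3 in WT.

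Hist3h2ba separated the classes more than the libraries. Alpha-gated cells had 117 CPM in ASF-KO, 165 in SC35-KO and 146 in WT, whereas beta-gated cells had 5.57, 8.19 and 6.78. Delta-gated cells had 63.8 in ASF-KO, 93.2 in SC35-KO and 81.6 in WT, and gamma-gated cells 80.8, 89.2 and 76.6. The lowest levels of the 5 classes were in endothelial-gated cells, with 2.02 in ASF-KO, 3.59 in SC35-KO and 3.82 in WT, from 3, 4 and 8 UMIs. A Hist3h2ba UMI was found in 59.1% of ASF-KO alpha-gated cells, 66.0% of SC35-KO and 68.6% of WT at median depths of 9065, 7776 and 9897.5 UMIs, against 0.713%, 1.04% and 1.24% of endothelial-gated cells at 3359, 2484 and 2969 UMIs. Beta-gated cells, though deeper, had it in 9.48% of ASF-KO, 10.2% of SC35-KO and 9.50% of WT cells. Its ratios to WT in alpha-gated cells were 0.805 (0.752 to 0.861) in ASF-KO and 1.13 (1.07 to 1.20) in SC35-KO.

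Hist2h2be was 0.72 below the median gene (log2) in ASF-KO beta-gated cells, and Hist2h2bb 0.70 above it in ASF-KO and 0.63 above it in SC35-KO, though with 98, 83 and 84 UMIs in ASF-KO, SC35-KO and WT. Hist1h2bp, with 11 UMIs in ASF-KO, 23 in SC35-KO and 11 in WT, was 1.71 above the median gene in SC35-KO, and its interval ran from 0.61 to 2.89. It was measured only through its SC35-KO count, which favours a higher call.

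**Figure D4:**
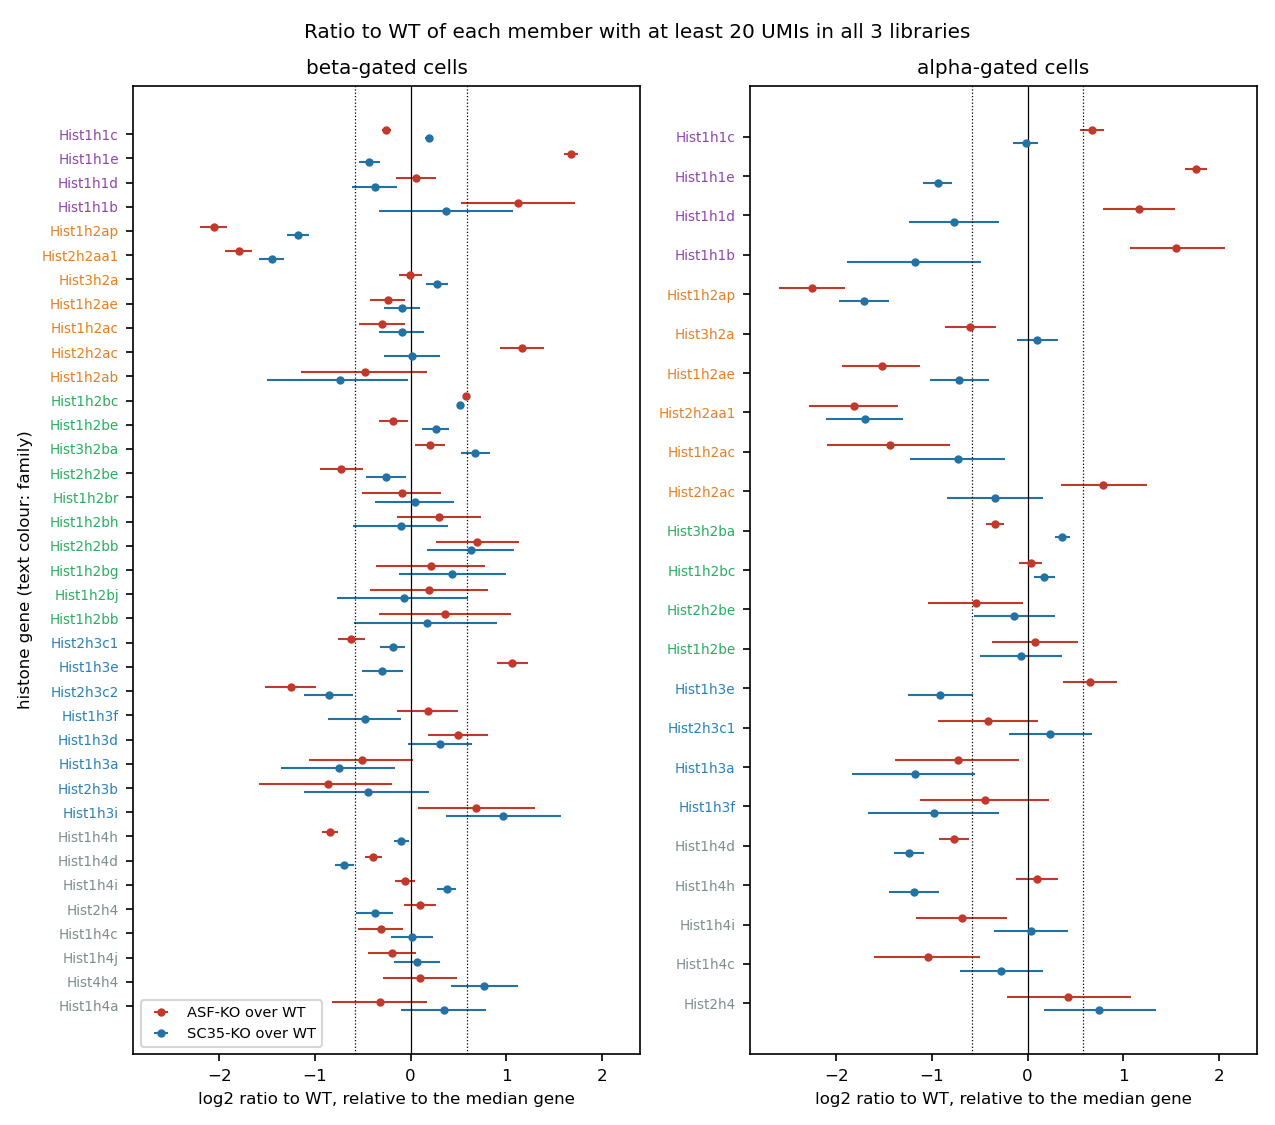
Log2 ratio to WT relative to the median gene (horizontal) of members with at least 20 UMIs in all 3 libraries (vertical, label colour by family), in beta-gated (left) and alpha-gated (right) cells, with 95% counting intervals; red is ASF-KO over WT and blue SC35-KO over WT, and dotted lines mark 1.5-fold. Hist1h1e lies right of the line in red in both panels, and Hist1h2ap and Hist2h2aa1 lie left of the line in both colours.

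H3 genes were few in number of UMIs and split in direction. Hist1h3e had 20.9 CPM in ASF-KO alpha-gated cells, 6.14 in SC35-KO and 13.1 in WT, with ratios of 1.60 (1.31 to 1.94) and 0.469 (0.370 to 0.593). In beta-gated cells it had 7.21 in ASF-KO, 2.97 in SC35-KO and 4.83 in WT. Its last bases are shared with Hist1h3f, so the pair is uncertain. Hist2h3c2 had 1.38 in ASF-KO beta-gated cells, 1.92 in SC35-KO and 4.60 in WT, 1.25 and 0.86 below the median gene on the log2 scale. Hist2h3c1, the highest H3 member, had 5.55 in ASF-KO beta-gated cells, 7.92 in SC35-KO and 11.9 in WT, and all 1825 of its exonic bases also lie in exons of Gm20634. Smaller genes were Hist1h3a, 0.74 below the median gene in SC35-KO beta-gated cells, and Hist1h3i, 0.97 above it, with 55 UMIs in SC35-KO and 44 in WT.

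H4 genes encode the same or nearly the same protein, and their summed level was highest in WT in all 5 classes. In alpha-gated cells the sum was 82.4 CPM in ASF-KO, 53.9 in SC35-KO and 113 in WT, with ratios of 0.726 (0.670 to 0.785) and 0.475 (0.439 to 0.513). In beta-gated cells it was 50.3 in ASF-KO, 65.1 in SC35-KO and 93.8 in WT, with ratios of 0.536 (0.519 to 0.554) and 0.694 (0.672 to 0.716). Hist1h4d was the H4 member with the lowest alpha-gated ratio in SC35-KO, at 0.373 (0.334 to 0.416), with 39.6 in ASF-KO, 24.8 in SC35-KO and 66.4 in WT. In beta-gated cells Hist1h4d had 14.2 in ASF-KO, 12.1 in SC35-KO and 26.0 in WT, with ratios of 0.546 (0.512 to 0.581) and 0.467 (0.435 to 0.501). Hist1h4h had 13.8 in ASF-KO beta-gated cells, 24.5 in SC35-KO and 34.7 in WT, but 26.8, 9.52 and 24.6 in alpha-gated cells. Its ratio was 0.398 (0.375 to 0.422) in ASF-KO beta-gated cells and 0.387 (0.323 to 0.464) in SC35-KO alpha-gated cells. Hist1h4i had 11.1 in ASF-KO beta-gated cells, 16.0 in SC35-KO and 16.3 in WT. In alpha-gated cells it had 4.74 in ASF-KO, 6.76 in SC35-KO and 7.49 in WT. There it stood at -0.69 in ASF-KO and 0.04 in SC35-KO relative to the median gene (log2). Hist4h4 was 0.77 above the median gene in SC35-KO beta-gated cells, and Hist2h4 0.74 above it in SC35-KO alpha-gated cells.

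The hallmark of these genes is expression in S phase. Cycling cells were called from at least 3 of 16 G2 and M phase genes that include no histone gene. An S phase cell with fewer of these markers was therefore left among the non-cycling cells. Few cells were called cycling: 13 cells in ASF-KO (0.184%), 43 in SC35-KO (0.398%) and 55 in WT (0.611%). Members summed to 1176 CPM in ASF-KO cycling cells, 1131 in SC35-KO and 4256 in WT, against 406, 403 and 486 in the other cells of the same libraries, which is 2.90 (2.63 to 3.18), 2.80 (2.62 to 2.99) and 8.76 (8.48 to 9.05) times their level. The cells differed in kind: 10 of 13 cycling cells in ASF-KO and 30 of 43 in SC35-KO were beta-gated, but 23 of 55 in WT were gated as B or plasma cells and 10 as beta. The B or plasma class itself had 6 cells in ASF-KO, 1 in SC35-KO and 106 in WT.

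Cycling cells with a single islet hormone are closer in cell kind, with 10 cells in ASF-KO, 32 in SC35-KO and 11 in WT. Their histone sum was 1064 CPM in ASF-KO (951 to 1187), 1176 in SC35-KO (1097 to 1258) and 2459.9 in WT (2300.1 to 2628). Against non-cycling cells of the same kind these were 2.67 (2.38 to 2.98), 2.94 (2.75 to 3.15) and 5.12 (4.78 to 5.47) times the level. The intervals leave out the spread between these few cells. S phase markers of the same cycling cells summed to 159 CPM in ASF-KO, 385 in SC35-KO and 645 in WT, the order of the histone sums. The part of cycle phase in the histone sums was not tested. Cycling B or plasma cells of WT reached 5709 CPM (5437 to 5990), 7.99 times the other 83 cells of that class. Cells that also held 6 or more S phase markers numbered 6 in ASF-KO, 17 in SC35-KO and 40 in WT. The histone sum of these cells was 0.530 times that of the remaining cycling cells in ASF-KO (0.436 to 0.644), 1.53 times in SC35-KO (1.34 to 1.75) and 1.99 times in WT (1.80 to 2.21). In WT, 19 of the 40 were B or plasma cells, as were 23 of all 55 cycling cells, and the part of cell kind in these ratios was not tested.

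Members differed widely in the share of their UMIs in cells called cycling. Pooled over the libraries, these cells held 0.504% of all UMIs, with 13 cycling cells in ASF-KO, 43 in SC35-KO and 55 in WT, so a pooled share also depends on which library carries a gene. Of the 54 members with at least 30 UMIs, 17 had over 10% of their UMIs in cycling cells and 10 had under 1%. The largest shares were those of the H3 genes Hist1h3b (97.4%) and Hist1h3c (88.4%), then Hist1h2af (83.3%), Hist1h1b (49.5%) and Hist1h2bm (43.1%). Hist1h3c had 68.4% of its UMIs in cycling cells in ASF-KO, 82.9% in SC35-KO and 93.6% in WT. Hist1h1b had 8.86% in ASF-KO, 55.4% in SC35-KO and 73.0% in WT, and Hist1h2bm 5.88%, 26.1% and 59.7%. Within a library, over 10% was seen in 1 of the 41 members with at least 30 UMIs in ASF-KO, 7 of 39 in SC35-KO and 19 of 50 in WT. The smallest pooled shares were those of Hist3h2ba (0.192%), Hist2h3c1 (0.370%), Hist3h2a (0.425%), Hist2h2be (0.451%) and Hist2h4 (0.462%). Among these 54, over 10% was seen in 2 of 5 H1, 7 of 12 H2A, 5 of 14 H2B, 3 of 10 H3 and 0 of 13 H4 genes.

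**Figure D5:**
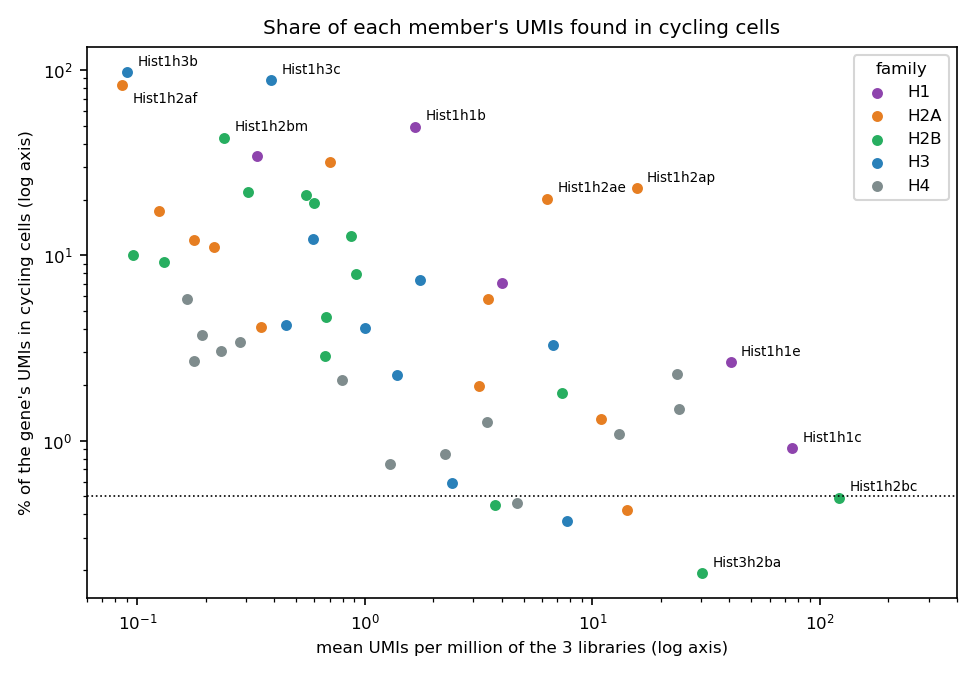
Percent of a member's UMIs found in cycling cells, over the 3 libraries (vertical, log axis), against its mean CPM (horizontal, log axis), for members with at least 30 UMIs, coloured by family. The dotted line is the share of all UMIs in cycling cells, 0.504%; Hist1h3b, Hist1h3c and Hist1h2af lie near the top, Hist1h2bc on the line and Hist3h2ba below it.

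The WT library had the most cycling cells. Of the 54 members with at least 30 UMIs, 38 were at least 5-fold higher in WT cycling than in non-cycling cells, against 9.01% of the 17023 genes with as many UMIs. Of the 55 WT cycling cells 23 were B or plasma cells, and the part of cell kind in this count was not tested. Hist1h2ap had 1486 CPM in WT cycling cells and 24.7 in the others, and Hist1h2ae had 511 and 6.67. Hist1h2bc was higher in cycling cells in both knockout libraries and lower in WT. It had 181 CPM in cycling cells against 121 in the others in ASF-KO (ratio 1.49, 1.15 to 1.90), 158 against 127 in SC35-KO (1.25, 1.04 to 1.48) and 58.2 against 116 in WT (0.503, 0.376 to 0.658). Hist3h2ba had 16.5 against 20.8 in ASF-KO, 13.6 against 43.9 in SC35-KO and 7.68 against 26.5 in WT, from 6, 11 and 7 UMIs in cycling cells. Within hormone-gated cells of WT, Hist1h2ap had 692 CPM in cycling cells and 24.0 in the others, and Hist1h2bc 103.3 and 116. Hist1h3c had 44 UMIs in those 11 cycling cells and 6 in the other 7021. Pooled over the 3 libraries, the 22 members with the long annotated end and at least 30 UMIs had a median of 1.89% of their UMIs in cycling cells. The 18 such members with the short end had 9.63%, and a pooled share also depends on which library carries a gene.

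Genes outside the set that share its function were read in beta-gated cells. In this class 11.4% of all measured genes were higher and 14.7% lower in ASF-KO, and 8.31% higher and 6.6% lower in SC35-KO. Of 11 replacement and other polyadenylated histone genes, 1 was higher and 1 lower in ASF-KO, and 3 were higher and 0 lower in SC35-KO, with medians of 0.04 and 0.36 relative to the median gene (log2). H3f3a, an H3.3 gene and the highest of them, had 234 CPM in ASF-KO, 291 in SC35-KO and 245 in WT, more than any of the 67 members in that class. H2afy2, a macroH2A gene, was 0.92 above the median gene in ASF-KO, H1fx, a linker histone gene, 1.09 below it, and Cenpa, the centromeric H3 gene, 1.22 above it in SC35-KO with 131 UMIs against 88 in WT.

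The next list holds genes of histone message 3' end formation and decay. Of 15, 2 were higher and 0 lower in ASF-KO, and 1 was higher and 0 lower in SC35-KO, with medians of 0.15 and -0.11. Slbp, for the stem-loop binding protein, had 7.75 CPM in ASF-KO, 8.57 in SC35-KO and 9.68 in WT, or 0.17 and 0.23 above the median gene. Srrt, which joins the cap-binding complex to RNA processing, was 0.81 above it in ASF-KO, and Zfp473, a zinc finger protein of U7-dependent processing, was 0.70 above it in ASF-KO and 1.06 in SC35-KO with 28 UMIs in ASF-KO, 32 in SC35-KO and 24 in WT. Lsm11, of the U7 particle, was the lowest at -0.38 in ASF-KO and -0.53 in SC35-KO. Of 14 histone chaperones and deposition factors, 0 were called in ASF-KO and 1 was lower in SC35-KO, Chaf1b, with 37 UMIs against 88 in WT, and the medians were -0.02 and -0.06.

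By level over the 18 class-by-library sums of at least 100 cells, the genes most like Hist1h1e among 12129 were Psmd12, Ddx23, Nom1, Gspt1 and Cdk11b, with Pearson r of 0.925 to 0.906 on log2(CPM + 1). Those most like Hist1h2bc were Nrsn1, Cdh4, Elovl2, Dcx and Paupar, with r of 0.959 to 0.951. Sums of 1 library share its depth and preparation, and sums of 1 class share its cells, so these are descriptions of likeness only.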

How the data were processed

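Single-cell RNA-seq counts of islet cells were used as deposited: gene by barcode UMI counts for 32285 genes, made with Cell Ranger 5.0.0 per the file headers. STAR, Seurat and the mm10 build are named in the submitters' processing notes. Barcodes were dropped if under 500 genes, under 1000 UMIs or over 20% mitochondrial, and doublets called by Scrublet (scanpy 1.11.5) were removed. Classes were gated by hormone share or detected markers, and cycling cells by at least 3 of 16 G2 and M markers, with rules set after the data were seen: insulin at 25% of a cell's UMIs, Gcg or Sst at 5%, Ppy at 10%, or 4 endothelial markers. Of all kept cells, 217 in ASF-KO, 234 in SC35-KO and 247 in WT had 15% to 35% insulin. Members and gene lists were chosen with earlier results of these data known.

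Counts were summed per class and library and expressed as CPM, UMIs scaled to 1000000. Intervals are exact Poisson (levels), Clopper-Pearson (shares) or conditional binomial (ratios), and cover counting error only. Genes with at least 20 UMIs in either library were measured, and 1.5-fold from the median gene was called. Named with values were the 12 members highest by mean level, the highest of each family, the 5 with the largest and the 5 with the smallest share of UMIs in cycling cells, and in each beta-gated and alpha-gated comparison up to 5 members each way past 1.5-fold, ranked by the interval bound nearest to 1. Of each related list, up to 4 genes were named by level and extreme ratio. Members named outside these rules, such as Hist1h1a and Hist1h1t, were chosen after their values were seen. Cdk11b and the other genes named for likeness were ranked by correlation alone. Thinning left out cells under 2000 UMIs, 31 of ASF-KO, 21 of SC35-KO and 38 of WT beta-gated cells, 30, 47 and 13 alpha-gated cells. Ratios and their intervals were run on simulated Poisson counts. These hold no spread between mice or libraries, so the run checked the calculation alone. Sequences are from GENCODE M21 transcripts and RefSeq promoters (GRCm38.p6), where 62 of 67 members matched. Analyses used python 3.11.15, numpy 2.4.6, pandas 2.3.3, scipy 1.17.1 and matplotlib 3.10.9. Alternatives varied the filter, doublets, scaling, minimum count, fold, the cycling call and thinning, and the class gates were not varied.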

Additional observations from a re-analysis of the deposited data

Results flagged for a closer look

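The linker histone gene Hist1h1c had ASF-KO to WT values on opposite sides of the median gene in different classes. Relative to the median gene, on the log2 scale, it stood at 0.68 in alpha-gated cells and at 1.28 in endothelial-gated cells, against -0.60 in gamma-gated cells. The gamma value rests on 72 UMIs in ASF-KO and 217 in WT. With 1 library a group, the difference was not tested.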

How the results depend on the processing

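The histone sum of beta-gated cells depended on the scale: without hormone and mitochondrially encoded genes in the total its ratio to WT was 1.0 in ASF-KO and 1.07 in SC35-KO, and with a median-of-ratios factor 1.04 in each, all on the other side of 1 from the CPM of all UMIs. The first of these scales also gave ASF-KO ratios of 1.26 in alpha-gated, 1.02 in delta-gated (the other side of 1) and 0.904 in gamma-gated cells, SC35-KO ratios of 0.849, 0.938 and 0.915 in the same classes, and 5.60 for cycling over non-cycling cells of WT. The median-of-ratios factor gave 0.750 for ASF-KO gamma-gated cells, 0.866 for SC35-KO alpha-gated cells, and cycling ratios of 2.44 in SC35-KO and 5.67 in WT. The stricter cell filter gave 0.634 for SC35-KO endothelial-gated cells, keeping doublets gave 8.45 for WT cycling cells, needing 4 markers gave 9.32 for them, and leaving cycling cells out gave 1.28 for ASF-KO endothelial-gated cells. Calling cells cycling also from 6 S phase markers, chosen after seeing the data, gave 1.66 in ASF-KO, 2.52 in SC35-KO and 6.49 in WT. The cause of these changes was not tested.

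Counts of members moved with the filter and the fold. At 10 CPM or more, beta-gated cells had 1 higher (9.11% of all genes) and 4 lower (8.08%) of 10 members in ASF-KO. In SC35-KO they had 0 higher (3.55%) and 3 lower (2.56%) of 10. Alpha-gated cells had 5 higher (4.24%) and 5 lower (6.53%) of 13 in ASF-KO, and 0 higher (2.57%) and 7 lower (2.62%) of 11 in SC35-KO. At 1 UMI or more, 10 of 62 were higher (17.6%) and 12 lower (19.2%) in ASF-KO beta-gated cells. In SC35-KO beta-gated cells 15 of 63 were higher (19.6%) and 11 lower (13%). Of 55 in ASF-KO alpha-gated cells 13 were higher (14.8%) and 14 lower (17.7%), and of 59 in SC35-KO alpha-gated cells 6 were higher (12.8%) and 28 lower (14.6%). At 2-fold, ASF-KO had 4 higher (3.76%) and 5 lower (6.52%) of 47 in beta-gated and 3 higher (1.62%) and 7 lower (3.19%) of 28 in alpha-gated cells, and SC35-KO 1 higher (3.11%) and 3 lower (2.96%) of 47, and 0 higher (1.37%) and 7 lower (1.17%) of 28. Of the values of named members under these alternatives, 500 moved by less than their counting interval and 4 by more. No member called at 1.5-fold crossed the median gene, and uncalled members were not checked for this. The 66 values under each change of scale could not move, because a value relative to the median gene does not depend on the scale. The 36 shares thinned to 1000 UMIs differ from those at 2000 by construction. The 2-fold setting was not run for the related lists, whose medians have no fold. No paired analysis was possible because each genotype has 1 library, and no library could be left out.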
